A study of Rattus norvegicus with 6 samples.

Results

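The genes described here encode the extracellular matrix of the lens, its capsule and the TGF-beta pathway. They are a fixed list of 52 genes, 16 of the basement membrane and 36 of fibrosis and epithelial-mesenchymal transition (EMT), and a member was any probe set whose gene symbol in the array's probe annotation equals a listed name. A probe set of its own was found for 45 of the 52, among 18166 genes with such a probe set and 36685 probe sets in all. Ctgf and Cyr61 were found under their current symbols Ccn2 and Ccn1. Col4a6, Lamb1, Hspg2, Col6a1, Tgfbr2, Itgav and Snai2, 7 genes, had none and were not analysed here.

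The RNA came from cultured lenses of male Sprague-Dawley rats aged 6 weeks and was hybridised to 6 Affymetrix arrays (Rat Gene 2.0 ST), which report 1 log2 signal per probe set, so that a difference of 1 is a doubling. Control lenses (1 array) were kept in M199 medium with sterile water in place of galactose. Galactose lenses (3 arrays) were kept in 30 mM galactose for 6 days, which clouds the lens, and received DMSO. AZD0156 and KU55933 lenses (1 array each) had the same galactose, and for the last 3 of the 6 days also 20 µM of the named inhibitor of the DNA damage kinase Atm, in DMSO. The methods and the drawn scheme differ on how long the Control was cultured, and only sterile water is named for it, so galactose, DMSO and culture time cannot be told apart in comparisons with the Control. How many lenses an array stands for is not stated, and the Control and each inhibitor have no replicate.

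The lens is wrapped in a thick basement membrane, the capsule, laid down by its epithelium and fibre cells. Its scaffold is a network of collagen IV and a network of laminin, joined by nidogens and heparan sulphate proteoglycans. TGF-beta, held in latent form and released when matrix is remodelled, signals through its receptors to Smad proteins. In the lens epithelium it is known to drive EMT, with collagen I, fibronectin and contractile proteins, in forms of cataract that scar the capsule.

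A probe set was tested if its signal was at least 5 on 1 array or more. That level was reached by 24 of the 45 members (53.3%) and by 30.3% of the 19086 probe sets linked to a gene. Among basement membrane genes 9 of 13 reached it, and among fibrosis and EMT genes 15 of 32. The 5 collagen IV chains with a probe set all did, while only Col5a1 did among 5 interstitial collagens and only Zeb1 among 3 EMT transcription factors. On all 6 arrays, 17 members were at 5 or above. Nid2 passed only on Galactose arrays 1 and 3, Col5a1 and Smad3 only on Galactose array 3, and Zeb1 only on the AZD0156 array, so these 4 genes had to differ between arrays to be tested at all.

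Thbs1 is a special case. Its probe set carries no gene name in the annotation and was recognised only because a supplementary table of the study lists its 6 signals. That table holds genes the study chose on these same arrays for being higher in galactose than in the Control and lower with an inhibitor, and Nid2 is on it too. Thbs1 is therefore described with no test and enters no count or median below, which leaves 23 members tested, 9 of the basement membrane and 14 of fibrosis and EMT.

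Lens markers were present and those of most other tissues were not. All 7 lens epithelium markers and all 5 lens fibre markers with a probe set reached 5 on at least 1 array, and 0 markers of endothelium, immune cells, retina, pigment epithelium or red blood cells did. Of 6 fibroblast and stroma markers only Pdgfra reached 5. Their list sum of linear signal was 198.2 in the Control, 71.81 to 84.07 in galactose, 75.36 with AZD0156 and 78.28 with KU55933. Of 5 smooth muscle and pericyte markers only Des reached 5, with sums of 108.7, 50.01 to 53.88, 50.76 and 54.79 in the same order. Pdgfra and Des make up most of these Control sums. Pdgfra was 7.32 in the Control and 4.79 to 5.41 in galactose, and Des 6.11 and 3.65 to 4.18. The summed signal of the epithelium markers was 10700 in the Control, 10070 to 10750 in galactose, 10080 with AZD0156 and 10250 with KU55933, but Cryab makes up most of it. The mean log2 signal of the 7 epithelium markers was 8.14 in the Control, 7.27, 8.12 and 8.10 on Galactose arrays 1, 2 and 3, 7.52 with AZD0156 and 7.48 with KU55933. Galactose array 1 thus stood below the other galactose arrays in this mean. Single markers went opposite ways: Foxe3 was 6.69 in the Control and 4.48 to 5.05 in galactose, Aqp1 7.16 and 4.52 to 4.85, and Pdpn, which the study had chosen, 7.45 and 9.42 to 9.91. For Pax6, Cdh1 and Gja1 the Control lay inside the galactose range.

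Collagen IV genes lie in head-to-head pairs that share a promoter region, and the windows of both pairs with 2 tested chains are shown because their members are read side by side below. The windows are RefSeq sequences of build GRCr8, each from 250 bases before to 50 bases after the start of transcription, for Col4a1 (chr16:84885347-84885646, plus strand), Col4a2 (chr16:84885471-84885770, minus strand), Col4a3 (chr9:91323740-91324039, plus strand) and Col4a4 (chr9:91323528-91323827, minus strand), written 5′ to 3′. Capitals mark the GC box GGGCGG bound by Sp1 and the E-box CAGGTG bound by Snail and Zeb factors, each searched on both strands.
Col4a1: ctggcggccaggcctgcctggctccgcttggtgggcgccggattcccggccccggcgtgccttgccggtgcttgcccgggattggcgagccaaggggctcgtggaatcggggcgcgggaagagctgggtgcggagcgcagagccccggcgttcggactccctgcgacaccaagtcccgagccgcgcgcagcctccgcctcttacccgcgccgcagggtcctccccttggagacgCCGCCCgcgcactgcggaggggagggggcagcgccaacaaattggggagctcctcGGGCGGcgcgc
Col4a2: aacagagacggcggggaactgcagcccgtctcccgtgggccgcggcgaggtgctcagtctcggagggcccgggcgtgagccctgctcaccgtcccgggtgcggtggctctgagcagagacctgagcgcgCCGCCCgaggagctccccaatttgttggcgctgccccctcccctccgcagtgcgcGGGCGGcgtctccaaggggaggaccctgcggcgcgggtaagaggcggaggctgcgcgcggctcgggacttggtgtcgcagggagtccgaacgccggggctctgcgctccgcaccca
Col4a3: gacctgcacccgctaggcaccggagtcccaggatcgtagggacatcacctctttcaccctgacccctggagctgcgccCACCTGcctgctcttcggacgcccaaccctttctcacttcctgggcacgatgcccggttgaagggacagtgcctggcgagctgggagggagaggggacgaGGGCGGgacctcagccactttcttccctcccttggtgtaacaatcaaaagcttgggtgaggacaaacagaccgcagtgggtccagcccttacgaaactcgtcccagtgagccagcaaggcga
Col4a4: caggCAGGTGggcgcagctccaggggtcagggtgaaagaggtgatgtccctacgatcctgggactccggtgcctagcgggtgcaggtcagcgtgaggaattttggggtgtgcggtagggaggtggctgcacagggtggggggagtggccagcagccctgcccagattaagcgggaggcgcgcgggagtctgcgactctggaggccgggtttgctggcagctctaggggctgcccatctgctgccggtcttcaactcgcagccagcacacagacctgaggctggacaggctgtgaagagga
The starts of Col4a1 and Col4a2 are 77 bases apart and their windows share 176 bases, and both GC boxes of one window are the same bases as those of the other. Col4a3 and Col4a4 start 413 bases apart, share 88 bases, and hold the same single E-box. The GC box was found in 11 of the 14 basement membrane windows, in 18 of 28 windows of fibrosis and EMT genes and in 33.1% of the 33469 windows of all genes. The E-box was found in 3 of 14, 5 of 28 and 18.8%. The TATA box TATAAA was in 0 of 14 basement membrane windows and 4 of 28 others, against 14.2% of all, and the Smad box repeat GTCTNNAC was in 0 of 14 and 3 of 28, against 9.84%. These are matches of letters only, and the motifs in capitals do not overlap each other.

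Collagen IV chains were lower in galactose lenses than in the Control, without passing the test. Col4a1, which with Col4a2 forms the collagen IV found in nearly all basement membranes, read 7.41 in the Control, 5.75, 6.07 and 6.84 on Galactose arrays 1 to 3, 5.44 with AZD0156 and 5.87 with KU55933. The Control array was above every other array. Galactose minus Control was -1.19 (SE 0.41, 95% interval -2.15 to -0.22), with an adjusted p of 0.148 by limma. Col4a2 read 6.09 in the Control, 4.65, 5.42 and 5.82 in galactose, 4.85 with AZD0156 and 4.98 with KU55933, again highest in the Control, with a difference of -0.80 (SE 0.42, adjusted p = 0.305).

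The chains typical of specialised basement membranes were closer to the Control. Col4a3 was 6.54 in the Control, 5.26, 5.88 and 6.46 in galactose, 6.10 with AZD0156 and 5.50 with KU55933. The highest galactose array came close to the Control. Col4a4 was 5.90, then 5.22, 5.27 and 6.01, then 5.88 and 5.56 in the same order, and Galactose array 3 exceeded the Control. Col4a5 was 5.60, then 4.97, 5.53 and 6.05, then 5.14 and 5.23, with the Control inside the galactose range. Their differences from the Control were -0.67, -0.40 and -0.08, with SEs of 0.42, 0.34 and 0.39 and adjusted p from 0.389 to 0.924. All 5 tested chains thus had a negative difference, with a median of -0.67, where 51.1% of all 5784 probe sets tested had a negative difference and their median was -0.02. Without Galactose array 1, Col4a5 turned to 0.19, 4 of 5 were negative and the median was -0.37. The epithelium markers Foxe3, Aqp1 and Cryab were also highest in the Control and Pdpn lowest, while Pax6, Cdh1 and Gja1 had the Control inside the galactose range. The part of these markers in the collagen IV differences was not tested.

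**Figure D1:**
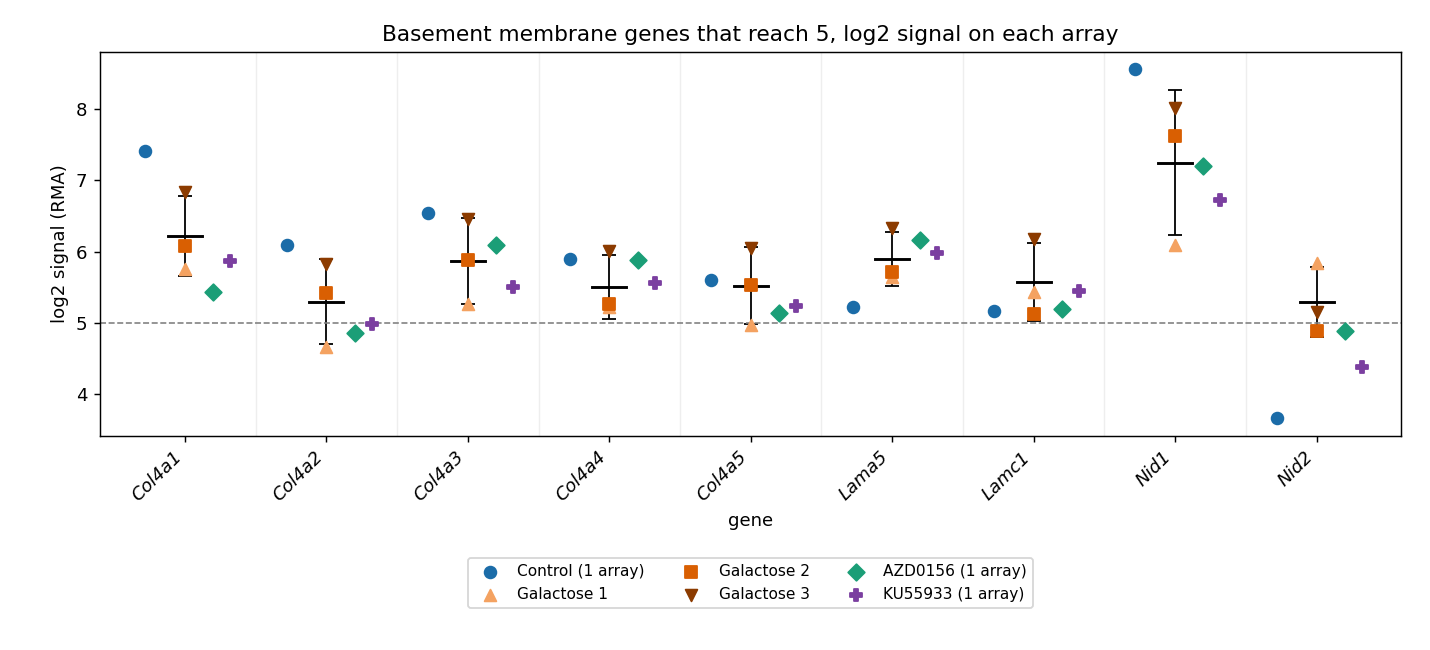
Log2 signal (vertical axis) of the 9 basement membrane genes that reach 5 (dashed line) on each of the 6 arrays; bars give the mean and SD of the 3 galactose arrays. The Control lies above all galactose arrays for Col4a1, Col4a2, Col4a3 and Nid1 and below them for Lama5 and Nid2.

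The nidogens, which tie laminin to collagen IV, went opposite ways. Nid1 was 8.56 in the Control, 6.09, 7.63 and 8.02 in galactose, 7.20 with AZD0156 and 6.73 with KU55933. The Control was again the highest array, but the galactose arrays were far apart (SD 1.02), and the difference of -1.31 had an SE of 0.68 and an adjusted p of 0.296. Nid2, its paralogue, was 3.66 in the Control, 5.84, 4.88 and 5.16 in galactose, 4.88 with AZD0156 and 4.38 with KU55933. Here the Control was the lowest array and did not overlap the galactose arrays, and the difference of 1.63 (SE 0.39, 95% interval 0.71 to 2.55, adjusted p = 0.0762 by limma) was the closest to the threshold of any member. The study had chosen Nid2 on these arrays, so this direction is not independent evidence.

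Laminins differed by chain. Lama5, a chain of adult basement membranes, was 5.23 in the Control, 5.64, 5.72 and 6.34 in galactose, 6.17 with AZD0156 and 5.98 with KU55933, and the Control was below every other array (difference 0.67, SE 0.31, adjusted p = 0.257). Lamc1, the gamma chain of most laminins, was 5.16 in the Control, 5.43, 5.12 and 6.17 in galactose, 5.19 with AZD0156 and 5.45 with KU55933, and its groups overlapped (0.41, SE 0.39, adjusted p = 0.575). Lama1 and Lamb2 stayed under 5 on every array but read highest in the Control, at 4.61 and 4.90 against galactose means of 4.23 and 4.34. For Lama1, Galactose array 3 was level with the Control, at 4.607 against 4.611. Col18a1, the source of endostatin, was 3.71 in the Control and 3.11 on average in galactose, and Agrn, a heparan sulphate proteoglycan, was 3.99 and 4.18.

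Interstitial collagens had low signals, and 4 of the 5 with a probe set stayed under 5 on every array. Col1a1 and Col1a2, which form the collagen I of scars, were between 2.88 and 4.35 on the 6 arrays, and Col3a1 and Col5a2 between 2.33 and 3.22. Col5a1, which starts collagen I fibrils, was 4.26 in the Control, 4.83, 4.94 and 5.15 in galactose, 4.58 with AZD0156 and 4.23 with KU55933, with every galactose array above the other 3 (0.72 above the Control, SE 0.27, adjusted p = 0.183). A second probe set for Col5a1 was 4.67 in the Control and 4.54 to 4.84 in galactose and did not show this, so the difference rests on 1 of 2 probe sets.

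Among adhesive and matricellular proteins, fibronectin (Fn1), a standard marker of lens EMT, was low throughout. It read 2.96 in the Control, 3.36, 2.85 and 3.46 in galactose, 3.28 with AZD0156 and 3.44 with KU55933, with the Control inside the galactose range. Thbs1, thrombospondin 1, which can release TGF-beta from its latent complex, was 4.69 in the Control, 6.17, 5.70 and 6.92 in galactose, 5.53 with AZD0156 and 5.45 with KU55933. The galactose arrays were all above the inhibitor arrays, and these above the Control. Its selection requires a galactose signal above the Control and a lower signal with an inhibitor. It does not require the inhibitor arrays to be above the Control. Sparc, a collagen-binding protein, was 10.36 in the Control, 9.26, 10.60 and 10.63 in galactose, 9.73 with AZD0156 and 9.98 with KU55933. Only Galactose array 1 was lower than the inhibitor arrays.

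Ctgf, a target of both TGF-beta and YAP, varied most between galactose arrays among fibrosis and EMT genes, at 7.69, 6.11 and 6.77 (SD 0.80), around 6.80 in the Control. It was 5.90 with AZD0156 and 6.55 with KU55933. Galactose minus Control was 0.06 for Ctgf and -0.19 for Sparc, with SEs of 0.54 and 0.52. Cyr61, its relative, stayed under 5, at 3.80 in the Control and 4.20 to 4.79 in galactose. Spp1 (osteopontin) and Tgfbi, a protein named for its induction by TGF-beta, were at or below 3.29 on all arrays.

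No TGF-beta ligand, receptor or Smad passed the test, and Smad3 and Tgfb2 were above the Control on every galactose array. Smad3 was admitted to the test only by Galactose array 3, so its direction is a description. Tgfb1 was 6.90 in the Control, 6.48, 6.64 and 6.76 in galactose, 6.92 with AZD0156 and 6.59 with KU55933. Tgfb2, the main ligand in the eye, was 6.36 in the Control, 6.65, 6.51 and 7.16 in galactose, 6.88 with AZD0156 and 6.45 with KU55933, with the Control a little below all galactose arrays. Smad3, a signal carrier of the receptor, was 4.53 in the Control, 4.98, 4.65 and 5.20 in galactose, 4.47 with AZD0156 and 4.41 with KU55933, and the galactose arrays were the upper 3. Galactose minus Control was -0.28 (SE 0.25) for Tgfb1, 0.42 (SE 0.31, 95% interval -0.32 to 1.15) for Tgfb2 and 0.41 (SE 0.30, -0.30 to 1.13) for Smad3, none with an adjusted p under 0.456.

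Tgfbr1, the type I receptor, was 6.08 in the Control and between 5.79 and 5.82 on the galactose arrays, the tightest triplet of any member (SD 0.014), with a difference of -0.27 (SE 0.20). Smad2 was 5.66 in the Control and 5.22 to 5.66 in galactose (-0.20, SE 0.24). The inhibitory Smad7, induced by the pathway it blocks, was under 5, at 3.83 in the Control and 3.43 to 3.54 in galactose.

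Among genes that process matrix, 4 of 8 reached 5. Timp1, an inhibitor of matrix metalloproteinases, was 8.81 in the Control, 9.09, 10.15 and 10.53 in galactose, 8.90 with AZD0156 and 8.76 with KU55933. Every galactose array was above the other 3 arrays, which lay close together, but Galactose array 1 was only just above them. Galactose minus Control was 1.12 (SE 0.51, 95% interval -0.10 to 2.33, adjusted p = 0.25).

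Timp3, an inhibitor that binds to matrix, was 8.58 in the Control, 7.50, 7.63 and 7.99 in galactose, 7.35 with AZD0156 and 8.20 with KU55933. The Control was highest and the difference was -0.87 (SE 0.29, 95% interval -1.55 to -0.18, adjusted p = 0.138). Serpinh1, the collagen chaperone HSP47, was 7.12 in the Control, 6.36, 6.57 and 6.74 in galactose, 5.67 with AZD0156 and 6.78 with KU55933 (-0.56, SE 0.25, adjusted p = 0.242), and AZD0156 was clearly below all other arrays. Timp2 was 8.32 in the Control and 7.82 to 8.54 in galactose (-0.06, SE 0.34).

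The enzymes themselves were below 5. Mmp2 lay between 2.57 and 3.48, Mmp14, its activator, between 3.74 and 4.74, and the collagen cross-linking enzymes Lox and Loxl1 between 2.33 and 4.97. Among integrins, Itgb1, the common beta chain, was 7.12 in the Control, 6.93 to 7.37 in galactose, 6.97 with AZD0156 and 7.46 with KU55933 (0.01, SE 0.28), and Itga5 and Itga6 stayed at or below 4.19. Among EMT transcription factors, Zeb1 was 4.68 in the Control, 4.40, 4.52 and 4.32 in galactose, 5.14 with AZD0156 and 4.05 with KU55933 (-0.27, SE 0.28), Snai1 did not exceed 3.36 and Twist1 did not exceed 2.03.

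**Figure D2:**
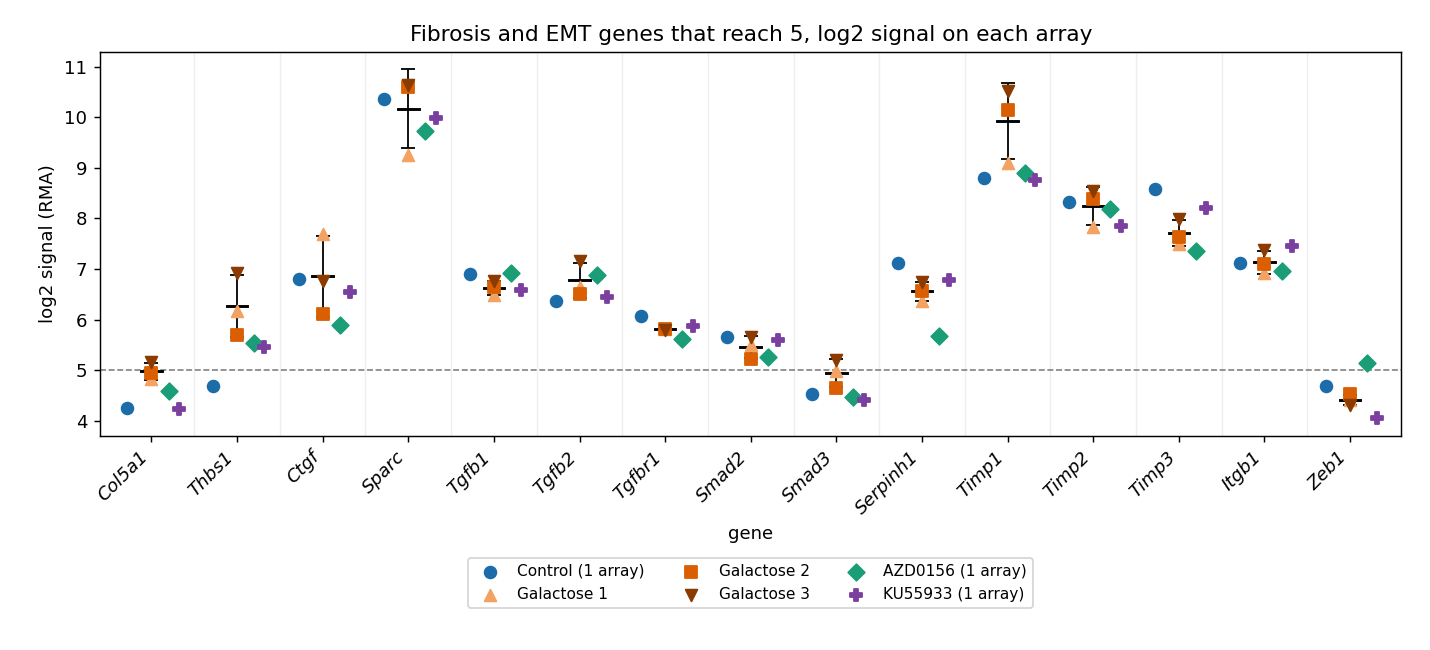
Log2 signal (vertical axis) of the 15 fibrosis and EMT genes that reach 5 (dashed line) on each of the 6 arrays, with the mean and SD of the 3 galactose arrays as bars. Timp1, Col5a1, Thbs1 and Smad3 are higher on all galactose arrays than on the other 3, and Tgfbr1 has the narrowest galactose spread (SD 0.014). Col5a1 and Smad3 reach 5 only on Galactose array 3, and the study chose Thbs1 for being higher in galactose.

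Across the comparison of galactose with the Control, limma called 0 of 23 members higher and 0 of 23 lower at an adjusted p under 0.05, where 1.61% of all 5784 probe sets were called higher and 1.26% lower. Before adjustment, at a p under 0.05, 2 members were higher (Nid2 and Col5a1, both admitted to the test only by galactose arrays) and 2 lower (Col4a1 and Timp3), against 11.2% and 11.9% of all probe sets. The Control lay above all 3 galactose arrays for 9 of the 23 members and below them for 6, where 35.2% and 32.8% of all probe sets did. These shares are near those of the whole array, and the 6 include Nid2, Col5a1 and Smad3, which were admitted only by galactose arrays. In whole-lens RNA, fewer cells of a type and less RNA per cell cannot be told apart.

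Basement membrane genes had a lower median difference than fibrosis and EMT genes. Over the 9 tested basement membrane genes the median was -0.40 (range -1.31 to 1.63), with 6 negative, and over the 14 fibrosis and EMT genes it was -0.13 (range -0.87 to 1.12), with 8 negative, against -0.02 for all probe sets tested. Among the positive ones, Nid2, at 1.63, and Col5a1 and Smad3 were admitted to the test only by galactose arrays, so these counts and ranges are a description. With no filter on signal, the medians were -0.40 over 13 basement membrane genes and -0.02 over 31 fibrosis and EMT genes, against 0.05 over all 19086 linked probe sets. Within the basement membrane list the 5 collagen IV chains and Nid1 were negative and Nid2, Lama5 and Lamc1 positive. With 1 galactose array left out, the basement membrane median ranged from -0.65 (without array 3) to -0.26 (without array 1) and that of fibrosis and EMT genes from -0.21 (without array 3) to -0.0459 (without array 1). Whether the lists differ was not tested.

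**Figure D3:**
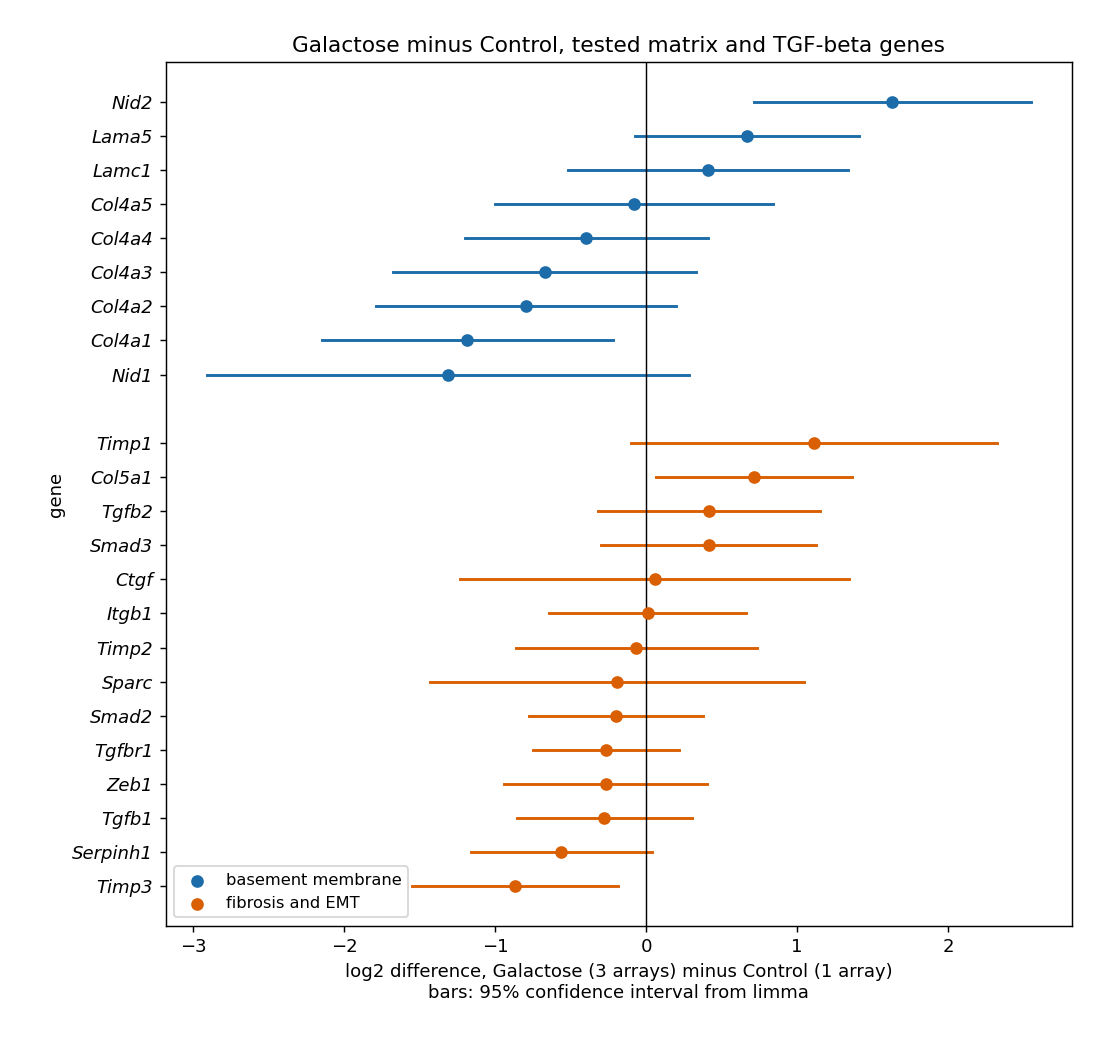
Log2 difference of the galactose mean (3 arrays) from the Control (1 array), horizontal axis, with its 95% interval from limma, for the 9 basement membrane genes (blue) and 14 fibrosis and EMT genes (orange) tested. The intervals of Nid2, Col4a1, Col5a1 and Timp3 leave out 0, and those of the other 19 genes include it. Nid2 and Col5a1 were admitted to the test only by galactose arrays.

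The 3 galactose arrays differed more for these genes than for most. The median SD among them was 0.54 for basement membrane genes, 0.24 for fibrosis and EMT genes and 0.20 for all probe sets tested. Galactose array 3 was the highest of the 3 for 8 of 9 basement membrane genes and 11 of 14 fibrosis and EMT genes, against 40.5% of all probe sets, and Galactose array 1 was the lowest for 7 of 9 and 8 of 14, against 48.2%. Col5a1 and Smad3, among the 11, were admitted to the test only by Galactose array 3, which therefore had to be highest for them. The epithelium markers Pax6, Cdh1 and Gja1 were also lowest on Galactose array 1 of the 3, at 6.57, 7.03 and 5.68, and at 7.57 or above on the other 2. Their part in the spread of the matrix genes was not tested.

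**Figure D4:**
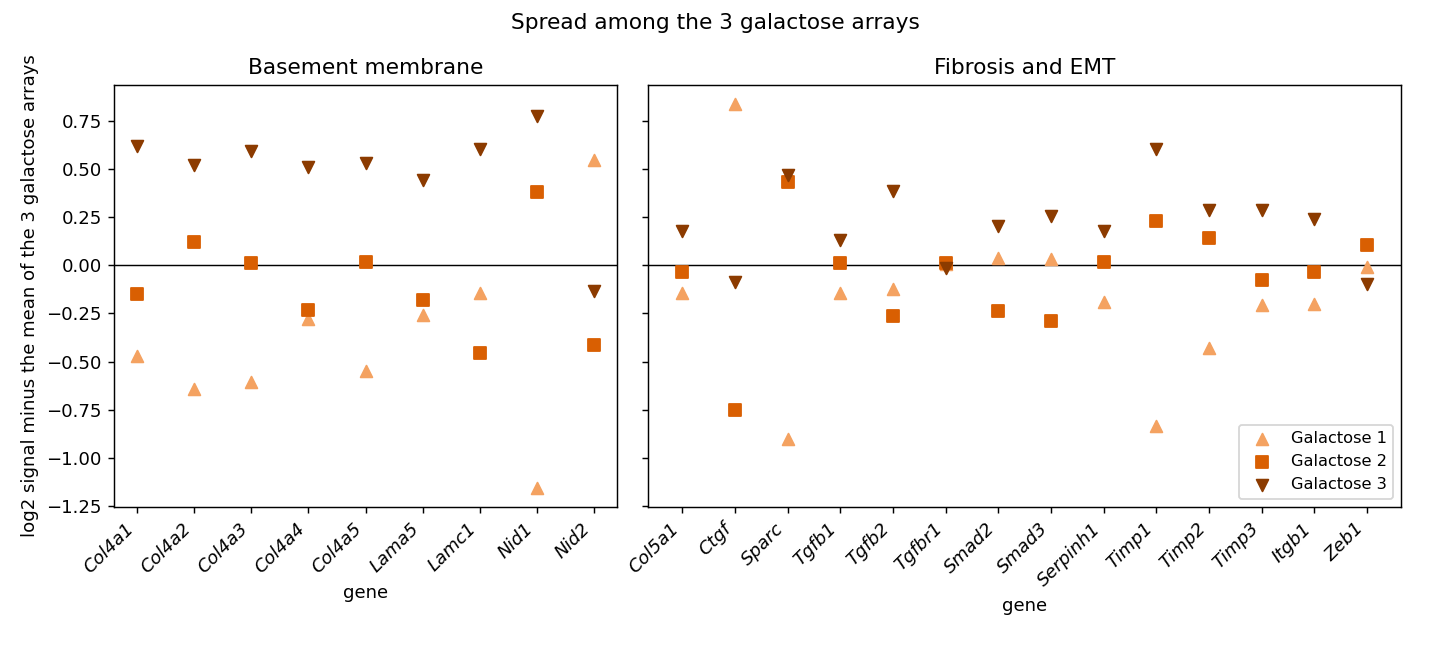
Signal of each galactose array minus the mean of the 3 (vertical axis, log2), for the 9 basement membrane genes (left) and the 14 fibrosis and EMT genes (right) tested. Galactose array 3 is highest for 8 of 9 and 11 of 14 genes, and Galactose array 1 lowest for 7 of 9 and 8 of 14. Array 3 had to be highest for Col5a1 and Smad3, which it alone admitted to the test.

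Calls depended on Galactose array 1. Without it, limma called 7 of 23 members in galactose against the Control, where it called 28.4% of all probe sets: Nid2, Lama5, Col5a1 and Timp1 higher, and Col4a1, Nid1 and Timp3 lower. Nid2 and Col5a1 were admitted to the test only by galactose arrays, and the study had chosen Nid2, so these 2 calls are a description. Timp1 then differed by 1.53 (SE 0.16, adjusted p = 8.99e-14 by limma) and Col4a1 by -0.95 (SE 0.23, adjusted p = 0.000805). The spread in that fit rested on 2 galactose arrays with 1 residual degree of freedom, and the prior degrees of freedom rose from 4.97 to 108.2. Without Galactose array 2 or 3, 0 of 23 were called. Of all 5784 probe sets, 30 were then called higher and 17 lower without array 2, and 3 and 3 without array 3.

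Adding an Atm inhibitor to galactose lenses asks whether these genes moved while the lens was treated. Both inhibitors are set against the same 3 galactose arrays, so an array that is high or low there moves both differences. With AZD0156 limma called 0 of 23 members, as it called 0.0% of all probe sets. At an unadjusted p under 0.05, 1 was lower (Serpinh1) and 1 higher (Zeb1), against 12.4% and 1.33% of all probe sets, and Zeb1 was admitted to the test only by its AZD0156 signal. With KU55933 it again called 0 of 23 and 0.0% of all probe sets, with 1 member (Col5a1) lower and 0 higher at an unadjusted p under 0.05, against 1.16% and 2.3%. Col5a1 was admitted to the test only by Galactose array 3, so its lower signal with KU55933 is a description. Its second probe set read 4.53 with KU55933 and 4.54 to 4.84 in galactose.

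Serpinh1 was lower with AZD0156 than the galactose mean (difference -0.89, SE 0.25, 95% interval -1.49 to -0.29, adjusted p = 0.24 by limma) and 0.22 above it with KU55933 (SE 0.25). Zeb1, a repressor of E-cadherin, differed by 0.72 with AZD0156 (SE 0.28, adjusted p = 0.343) and by -0.36 with KU55933. Timp1 differed by -1.03 with AZD0156 and -1.16 with KU55933 (SE 0.51 each, adjusted p = 0.428 and 0.992), and both arrays were below every galactose array and close to the Control. Thbs1, given as a description, differed by -0.74 and -0.81. Nid2, admitted to the test only by galactose arrays and chosen by the study, is likewise a description, with differences of -0.41 and -0.91 (SE 0.39 each).

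The collagen IV chains differed in direction with an inhibitor, and 0 of the 10 differences had an unadjusted p under 0.05. Col4a1 differed from the galactose mean by -0.78 with AZD0156 and -0.35 with KU55933 (SE 0.41 each), away from the Control, and Col4a2 by -0.44 and -0.32. Col4a3 and Col4a4 differed by 0.23 and 0.38 with AZD0156, toward the Control, where Col4a4 with AZD0156 was at 5.88 and in the Control at 5.90, and by -0.37 and 0.05 with KU55933, and Col4a5 by -0.38 and -0.29.

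The other members did not pass the test either. Nid1 differed by -0.05 and -0.52, and Lama5 by 0.27 and 0.09, with AZD0156 and KU55933. Ctgf differed by -0.96 and -0.31, Sparc by -0.43 and -0.18, Tgfb2 by 0.11 and -0.32, Smad3 by -0.48 and -0.54, Timp3 by -0.36 and 0.49, and Col5a1 by -0.39 and -0.74, the last with an interval of -1.39 to -0.09 that leaves out 0. Col5a1 and Smad3 were admitted to the test only by Galactose array 3, so their differences are a description. The interval for Timp3 ran from -1.04 to 0.33 with AZD0156 and from -0.19 to 1.18 with KU55933, so shifts of either sign remain possible.

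By list, the median difference with AZD0156 was -0.38 for basement membrane genes (6 of 9 negative) and -0.28 for fibrosis and EMT genes (11 of 14 negative), against -0.18 for all probe sets, of which 70.8% were negative, so the AZD0156 array was lower as a whole among the probe sets tested. With KU55933 the medians were -0.32 (7 of 9 negative) and -0.24 (9 of 14 negative), against 0.05 and 42.9% negative. The basement membrane median with KU55933 was -0.59 without Galactose array 1 and -0.0455 without array 3, and with AZD0156 it was -0.46 and -0.0856. With no filter on signal, the medians with AZD0156 were -0.27 over 13 basement membrane genes and -0.0004 over 31 fibrosis and EMT genes, against -0.0232 over all 19086 linked probe sets. With KU55933 they were -0.24 and -0.0004, against 0.0058. The medians of the fibrosis and EMT genes thus depended on the filter, and with AZD0156 so did the median of all probe sets. AZD0156 lay below all galactose arrays for 1 of 9 and 7 of 14 genes, against 46.6% of all probe sets, and above them for 0 of 9 and 2 of 14, against 14.2%. KU55933 lay below them for 1 of 9 and 5 of 14, against 17.7%, and above them for 0 of 9 and 4 of 14, against 29.9%. Col5a1 and Smad3 are among the 7 and the 5 below, and Nid2 is the 1 of 9 with KU55933. Col5a1, Smad3 and Nid2 were admitted to the test only by galactose arrays, and all of them are also among the negative differences counted above with each inhibitor. Zeb1, among the 2 above with AZD0156, was admitted only by that array.

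**Figure D5:**
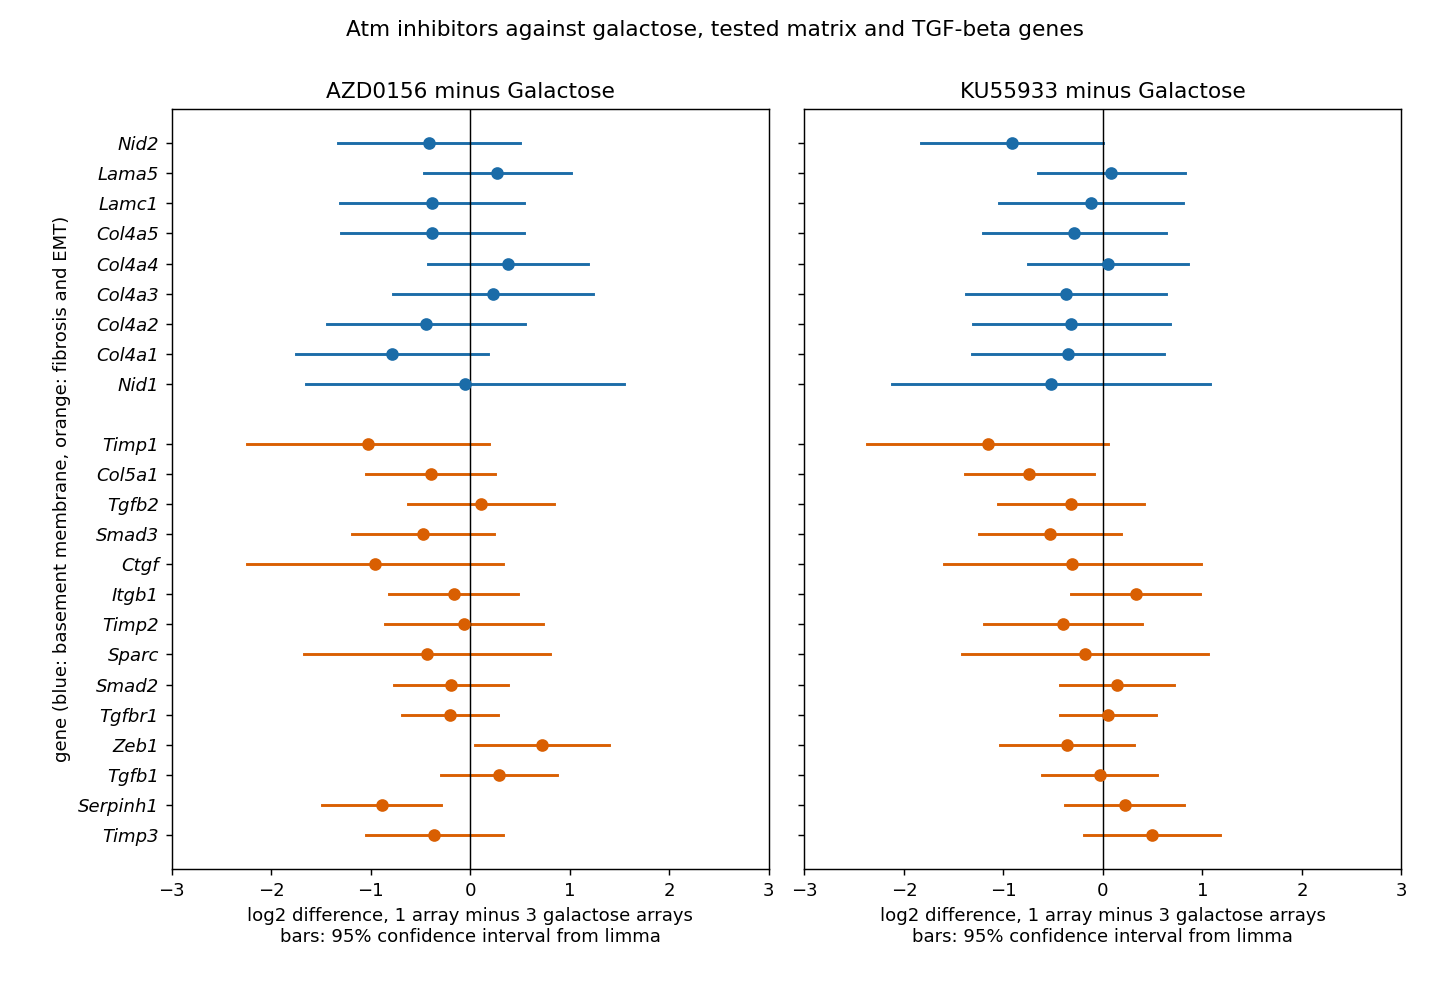
Log2 difference of the AZD0156 array (left) and the KU55933 array (right) from the mean of the 3 galactose arrays, horizontal axis, with 95% intervals from limma, for basement membrane genes (blue) and fibrosis and EMT genes (orange). Only Serpinh1 and Zeb1 on the left and Col5a1 on the right have intervals that leave out 0, and none passed the test after adjustment. Zeb1 was admitted to the test only by the AZD0156 array and Col5a1 only by Galactose array 3.

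Without Galactose array 1, limma called 7 of 23 members lower with AZD0156 (Col4a1, Col4a2, Col4a5, Nid1, Sparc, Serpinh1 and Timp1). Of all 5784 probe sets it called 946 lower and 109 higher, 18.2% in either direction. With KU55933 it called 4 members lower (Nid1, Sparc, Timp1 and Timp2). Of all 5784 it called 221 lower and 218 higher, 7.59% in either direction. Timp1 then differed by -1.44 with AZD0156 (SE 0.16, adjusted p = 5.5e-12) and by -1.58 with KU55933 (SE 0.16, adjusted p = 4.92e-13), and Sparc by -0.88 and -0.63.

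AZD0156 and KU55933 shared dose and duration, so 23 members could be compared between them, 1 array against 1. limma called 0 of 23, as it called 0.0% of all probe sets. At an unadjusted p under 0.05, Serpinh1 and Timp3 were lower with AZD0156 and Zeb1 higher, against 10.8% and 0.882% of all probe sets. Serpinh1 differed by -1.11 (95% interval -1.84 to -0.38, adjusted p = 0.329 by limma), Timp3 by -0.85 (-1.69 to -0.01, adjusted p = 0.429) and Zeb1 by 1.09 (0.26 to 1.91, adjusted p = 0.351), and without Galactose array 1 these 3 were called, with 13.9% of all probe sets. Zeb1 had to be high with AZD0156 to be tested, so its difference and call are a description. For Timp1 the difference was 0.13 (-1.35 to 1.62), for Nid2 0.50 (-0.62 to 1.62) and for Col4a1 -0.43 (-1.61 to 0.75), intervals that do not show that the compounds act alike.

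Against the Control, 0 of 23 members were called by limma with AZD0156 or with KU55933, where 0.207% and 0.156% of all probe sets were. With AZD0156, 2 members were higher and 4 lower at a raw p under 0.05, against 4.01% and 14.0% of all probe sets. With KU55933, 0 were higher and 1 lower, against 8.71% and 6.86%. Col4a1 was in both sets, at -1.97 (adjusted p = 0.126) and -1.54 (adjusted p = 0.244), both with an SE of 0.50. The others with AZD0156 were Serpinh1 at -1.45 (adjusted p = 0.0948 by limma), Timp3 at -1.23, Col4a2 at -1.24, Nid2 at 1.22 and Lama5 at 0.94. Because Nid2 was admitted to the test only by galactose arrays and chosen by the study, its difference is a description. Without Galactose array 1, 9 members were called with AZD0156 (24.2% of all probe sets) and 5 with KU55933 (19.2%).

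The wider pathway was read from 7 lists of 220 further genes, of which 201 had a probe set and 74 were tested. In galactose against the Control 3 were higher and 3 lower at an adjusted p under 0.05, against 1.61% and 1.26% of all probe sets. With no filter on signal, 1 was higher (Ctsl) and 2 lower (Pdgfra and Mfap2), where 36 of all 19086 linked probe sets were called higher and 33 lower. The adjusted p by limma was then 0.0665 for Tagln, 0.0896 for Serpinb6 and 0.079 for Sdc2. Ctsl, the lysosomal protease cathepsin L, rose from 8.14 in the Control to 10.40, 10.74 and 10.71 in galactose, and was 10.41 and 10.74 under AZD0156 and KU55933 (2.47, SE 0.23, adjusted p = 0.0105 by limma). Tagln, the smooth muscle protein transgelin, rose from 5.20 to 7.24, 7.98 and 8.51, and was 5.83 with AZD0156 and 6.54 with KU55933 (2.71, SE 0.46, adjusted p = 0.0381), and it is another gene that the study chose on these arrays. Serpinb6, an intracellular protease inhibitor, rose from 5.38 to 6.93, 6.67 and 6.52 (1.33, SE 0.26, adjusted p = 0.0478).

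Of the 3 that fell, Pdgfra, a growth factor receptor, went from 7.32 to 4.79, 5.13 and 5.41 (-2.20, SE 0.28, adjusted p = 0.0232). Mfap2, a microfibril protein, went from 6.34 to 4.01, 4.39 and 4.61, a galactose mean of 4.34 (SE of the difference 0.32, adjusted p = 0.0381), and reached 5 only in the Control, so it had to differ to be tested. Sdc2, a cell-surface heparan sulphate proteoglycan, went from 8.98 to 7.37, 7.65 and 7.75 (-1.39, SE 0.27, adjusted p = 0.0488). Without Galactose array 3, none of the 6 passed, with adjusted p of 0.0723 for Ctsl, 0.0578 for Pdgfra, 0.0959 for Tagln and for Mfap2, 0.126 for Serpinb6 and 0.145 for Sdc2. Without Galactose array 2, Ctsl (0.0266) and Pdgfra (0.0326) passed and the other 4 did not, with adjusted p by limma from 0.0694 for Tagln to 0.149 for Sdc2. Of all 5784 probe sets, 3 were called higher and 3 lower without array 3, and 30 and 17 without array 2.

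With the inhibitors against galactose, 0 of the 74 were called by limma, as were 0.0% of all probe sets. At a raw p under 0.05, 1 was higher and 13 lower with AZD0156, against 1.33% and 12.4% of all probe sets, and 1 higher and 2 lower with KU55933, against 2.3% and 1.16%. Tagln differed by -2.08 with AZD0156 (SE 0.46, adjusted p = 0.212) and by -1.37 with KU55933 (adjusted p = 0.992). Ctsl stayed above the Control with either inhibitor, by 2.27 (adjusted p = 0.0495) and 2.60 (adjusted p = 0.0283).

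Uncalled genes with the largest differences in their lists, in galactose against the Control, were these. In TGF-beta and BMP signalling, Inhba, which encodes an activin subunit, was 6.45 in the Control and 4.30 to 5.04 in galactose (-1.67, adjusted p = 0.0575), and Tgif1, a repressor of Smad-driven transcription that the study also chose, was 5.71 and 6.70 to 7.43 (1.40, adjusted p = 0.074). In collagen folding and maturation, P4hb, a subunit of prolyl hydroxylase, differed by 1.03 (adjusted p = 0.11) and Bmp1, which trims procollagen, by 1.06 (adjusted p = 0.153). Efemp2, needed for elastic fibres, differed by 1.13 (adjusted p = 0.0714), the proteoglycan Sdc3 by -0.93 (adjusted p = 0.0812), and of the other basement membrane genes Ntn4 by -0.89 (adjusted p = 0.168) and Tinagl1 by 0.40 (adjusted p = 0.528).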

How the data were processed

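As deposited, each probe set has a log2 signal, which the authors computed in R with RMA (Robust Multi-array Average) over all 6 arrays. The package and annotation are not given in the sources used here, and array data give no read depth, so the number of arrays limits precision. Probe sets linked to a gene that reach 5 on at least 1 array (5784) entered limma 3.58.1 in R 4.3.3, in 1 fit with 4 group means, 2 residual degrees of freedom and a trend in the variance prior. Residual variance rests on the 3 galactose arrays, and single arrays are assumed to vary likewise. Whether these came from separate animals is not stated, so p-values may reflect technical spread. The p-values were adjusted by Benjamini-Hochberg over all 5784, with a threshold of 0.05. The probe set of Thbs1 was matched by its 6 signals within a relative tolerance of 2e-05 to 1 probe set and fitted separately. A gene is given by its probe set with the highest mean. Named are all members, with each array's value for the 8 highest, the 3 largest differences per role, Thbs1, Fn1, Nid2, Tgfb2 and collagen IV, and, in the wider lists, called genes and the 2 largest differences in each. Members and lists were chosen with earlier results of these data known. The fit was tested on simulated data. Alternatives were no filter, a mean of at least 5, median-centred arrays, no trend, the mean of a gene's probe sets, and each galactose array left out. Promoter windows came from RefSeq (GRCr8) for 42 of 52 members. Python 3.11.15, pandas 2.3.3 and matplotlib 3.10.9 were used.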

Additional observations from a re-analysis of the deposited data

How the results depend on the processing

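Calling 0 members held in all 6 comparisons with no filter, a mean signal of at least 5, median-centred arrays or no trend. With 1 galactose array left out, the calls ranged from 0 to 7 in galactose against the Control, 0 to 7 for AZD0156 and 0 to 4 for KU55933 against galactose, 0 to 3 between the inhibitors, and 0 to 9 for AZD0156 and 0 to 5 for KU55933 against the Control. All calls came without Galactose array 1. With 1 galactose array left out, the basement membrane median ranged from -0.65 to -0.26 in galactose against the Control, -0.46 to -0.0856 with AZD0156 and -0.59 to -0.0455 with KU55933. With centring it was -0.18 with AZD0156. For fibrosis and EMT genes the AZD0156 median of -0.28 became -0.0004 with no filter and -0.0796 with centring, and the KU55933 median of -0.24 became -0.0004 with no filter, -0.0339 with a mean of at least 5, and -0.24 to -0.0496 with 1 galactose array left out. Over all probe sets the AZD0156 median of -0.18 became -0.0232 with no filter and 0.0163 with centring. The unfiltered values include genes with low signals, and the cause of the other shifts was not tested.

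No value with a changed sign was called. With centring, differences of AZD0156 from galactose turned to 0.15 for Nid1, 0.14 for Timp2, 0.0339 for Itgb1, 0.0053 for Smad2 and 0.0001 for Tgfbr1. With 1 galactose array left out, galactose against the Control ranged from -0.35 to 0.19 for Col4a5, -0.36 to 0.43 for Ctgf, -0.43 to 0.26 for Sparc, -0.21 to 0.15 for Timp2 and -0.11 to 0.11 for Itgb1. AZD0156 against galactose ranged from -0.0707 to 0.53 for Col4a3, -0.63 to 0.34 for Nid1 and -0.0215 to 0.30 for Tgfb2. KU55933 against galactose ranged from -0.0859 to 0.31 for Col4a4, -0.0451 to 0.31 for Lama5, -0.68 to 0.11 for Ctgf and -0.63 to 0.0523 for Sparc. No paired analysis was possible because only the galactose group has more than 1 array. Signals under 5 are low, though the median over all linked probe sets was 3.45 to 3.56 on the 6 arrays. Differences among low signals may be compressed, which was not tested.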
